A study of Mus musculus with 9 samples.

Results

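The early B cell factor genes Ebf1, Ebf2, Ebf3 and Ebf4, and the genes of the zinc finger proteins Zfp423 and Zfp521 that bind them, were followed on expression arrays of mouse adipocytes depleted of Ebf1. All probe sets whose single gene symbol in the platform table was one of these 6 genes were taken, and every such probe set is shown. They came to 15 of the 45037 probe sets tested, and to 6 of the 18193 genes with a probe set of their own: 5 probe sets for Ebf1, 3 each for Ebf2 and Ebf3, 2 for Zfp521 and 1 each for Ebf4 and Zfp423. The cells were 3T3-L1, a mouse preadipocyte line that turns into fat cells in culture, and they were already mature when lentivirus was added. The first group carried hairpin 2 against Ebf1, the next hairpin 1 against Ebf1, and the last a scrambled control hairpin, with 3 arrays in each group. All groups went through 3 to 4 rounds of infection and at least 8 days in puromycin at 5 µg/ml, so the controls too carried virus and were drug-selected. The series asks which genes depend on Ebf1 in fat cells. Arrays of a group are numbered as repeats, the titles leave unsaid whether repeats were separate cultures, and p-values reflect array-to-array spread only, which may be technical. With 3 arrays a group, their number limits the precision.

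EBF proteins are transcription factors that bind DNA as dimers through a zinc-coordinating domain and recognise a palindromic site. EBF1 is best known for committing lymphoid progenitors to the B cell lineage, and in fat cell lines it promotes differentiation together with EBF2, which also marks brown and beige fat precursors. Zfp423, a large protein of many zinc fingers, binds EBF proteins and SMAD proteins, marks committed preadipocytes and in mature white adipocytes restrains EBF2. Its close relative Zfp521 also binds EBF1 and holds back fat cell formation, and both zinc finger proteins can recruit the NuRD corepressor complex.

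Upstream sequences are shown because EBF proteins are themselves candidates to bind near members of the family, and the letters of their site can be read there. RefSeq promoter windows of build GRCm38.p6 are reported for 4 of the 6 members (Ebf1, Ebf3, Ebf4 and Zfp423), in 6 windows. Each is made of the 250 bases before a transcript start. Ebf2 had no window in the source used. Zfp521 was left out of this part, so the counts below do not cover it and its matches are not reported. The EBF site was searched as its core CCCNNGGG, where N is any base, and in a longer form with T before and A after that core; both read alike on the 2 strands, and the longer holds the shorter. The longer form was in 0 of the 6 windows, against 0.779% of 32851 windows of all genes. The core was in 1 window of Ebf3 and 1 of Zfp423, against 11.8% of all windows. The sequences below run 5′ to 3′ on the strand of the gene, with a core match in capitals. The Ebf1 window shown, on the + strand at chr11:44617850-44618099, belongs to the targeted gene and holds no match. A further Ebf1 window (chr11:44619978-44620227) and a further Zfp423 window (chr8:87959596-87959845) are not shown and hold no match. The Ebf3 window (- strand, chr7:137314446-137314695) has its match starting 21 bases before the start, and the Zfp423 window shown (- strand, chr8:87804440-87804689) 28 bases before it.
Ebf1: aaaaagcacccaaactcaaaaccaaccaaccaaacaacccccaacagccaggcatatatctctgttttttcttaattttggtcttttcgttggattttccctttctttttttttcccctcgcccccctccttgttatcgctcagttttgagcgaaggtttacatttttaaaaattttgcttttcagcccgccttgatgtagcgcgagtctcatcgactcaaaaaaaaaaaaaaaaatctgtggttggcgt
Ebf3: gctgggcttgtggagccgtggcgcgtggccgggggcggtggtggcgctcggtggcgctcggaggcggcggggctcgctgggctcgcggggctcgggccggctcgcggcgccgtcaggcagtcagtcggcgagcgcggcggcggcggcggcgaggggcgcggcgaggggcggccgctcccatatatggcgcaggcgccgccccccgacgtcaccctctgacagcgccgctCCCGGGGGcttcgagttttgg
Zfp423: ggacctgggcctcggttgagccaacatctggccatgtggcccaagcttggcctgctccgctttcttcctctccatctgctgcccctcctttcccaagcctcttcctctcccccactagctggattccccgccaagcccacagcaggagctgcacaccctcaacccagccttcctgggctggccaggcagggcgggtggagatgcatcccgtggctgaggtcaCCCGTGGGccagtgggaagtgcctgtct
A match of letters is a description and not a measured site, and the arrays hold no binding data.

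Deposited values lay between 3.90 and 15.0 on a log2 scale, with array medians of 6.31 to 6.38 and correlations over all probe sets of 0.996 to 0.998 within groups and 0.987 to 0.995 between groups. No pair of arrays shared more than 4.39% of its values to the last digit, so no array was a copy of another. This does not show that repeats were separate cultures. Each array was counted as 1 sample. Differences were tested with limma over all 45037 probe sets, and an adjusted p (Benjamini-Hochberg) below 0.05 counted as a change. By this rule 17.5% of all probe sets changed with hairpin 2 and 15.1% with hairpin 1, against scrambled, and 12.6% differed between the hairpins. Of the hairpin 1 changes, 69.2% were higher, against 56.5% once the values were quantile-normalized. The number of hairpin 1 changes, 6785, became 4268 without repeat 1 and 4488 without repeat 2 of scrambled, and 4513 without repeat 3 of hairpin 1. Differences are read here within a probe set across arrays. Percentiles, summed list levels and the choice of the probe set with the highest mean do set probe sets against each other. Signal is only a rough guide to RNA amount there.

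Ebf1, the gene both hairpins target, was lower with each hairpin on 3 of its 5 probe sets and with hairpin 2 on a further one. On 1416302_at, the Ebf1 probe set with the highest mean, the log2 signal was 8.90, 8.72 and 9.20 with hairpin 2, 9.32, 9.54 and 9.45 with hairpin 1, and 10.12, 10.15 and 10.31 with the scrambled hairpin. No array of one group entered the range of another, and every hairpin 2 array lay below every hairpin 1 array. The signal fell to 41.9% of scrambled with hairpin 2 (log2 difference -1.25, SE 0.116, limma adjusted p = 1.72e-06) and to 59.3% with hairpin 1 (-0.75, adjusted p = 0.000391). In these bulk samples fewer cells that express a gene and less RNA per cell cannot be told apart.

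The largest Ebf1 differences against scrambled were on 1439789_at. Its log2 signal was 7.95, 8.20 and 8.46 with hairpin 2, 8.75, 8.77 and 8.67 with hairpin 1, and 9.87, 9.93 and 9.68 on scrambled arrays. Again the 3 groups did not overlap. Signal fell to 32.5% of scrambled with hairpin 2 (-1.62, SE 0.121, adjusted p = 1.72e-07) and to 46.7% with hairpin 1 (-1.10, adjusted p = 1.93e-05). Among all probe sets these falls ranked 179 for hairpin 2 and 205 for hairpin 1, counted from the deepest.

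Probe set 1448293_at fell with both hairpins and did not separate them. It read 8.75, 8.67 and 9.08 with hairpin 2, 9.51, 8.71 and 9.10 with hairpin 1, and 10.13, 10.26 and 10.00 with the scrambled hairpin. The hairpin 1 arrays spread widely here (SD 0.40), repeat 2 lying among the hairpin 2 arrays and repeats 1 and 3 above them. The log2 difference was -1.30 with hairpin 2 (adjusted p = 4.03e-05) and -1.03 with hairpin 1 (adjusted p = 0.000542). Hairpin 2 minus hairpin 1 was -0.27, with an interval of -0.62 to 0.08 (95%, adjusted p = 0.341).

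Probe set 1416301_a_at, whose suffix marks probes shared by several transcripts of the same gene, gave a smaller hairpin 1 difference. It read 6.93, 7.34 and 7.30 with hairpin 2, 7.44, 8.00 and 7.96 with hairpin 1, and 8.33, 8.27 and 8.18 on scrambled arrays. All groups were apart, and repeat 1 of hairpin 1 lay near the hairpin 2 arrays. It fell with hairpin 2 (-1.07, 47.6% of scrambled, adjusted p = 9.72e-05), while with hairpin 1 the difference of -0.46 lay just outside the threshold (adjusted p = 0.0501, 72.8% of scrambled). With a filter at the 30th percentile of signal the hairpin 1 difference passed (adjusted p = 0.0396), as it did after quantile normalization (-0.55, adjusted p = 0.0148) and without hairpin 1 repeat 2 (0.0424) or hairpin 2 repeat 1 (0.0380). The platform table gives 1416301_a_at, 1416302_at and 1448293_at the same source record, so these probe sets are not independent readings of Ebf1.

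The fifth Ebf1 probe set, 1457441_at, read 5.25, 5.02 and 5.24 with hairpin 2, 5.22, 5.52 and 5.34 with hairpin 1, and 5.15, 5.25 and 5.40 with the scrambled hairpin. The groups overlapped, and its mean lay at the 27.7th percentile of all probe sets, in the low part of the array's range. The differences, -0.09 with hairpin 2 and 0.10 with hairpin 1, did not pass the test (adjusted p = 0.627 and 0.590). Over the other 4 probe sets the Ebf1 signal left was 32.5% to 47.6% of scrambled with hairpin 2 and 46.7% to 72.8% with hairpin 1.

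**Figure D1:**
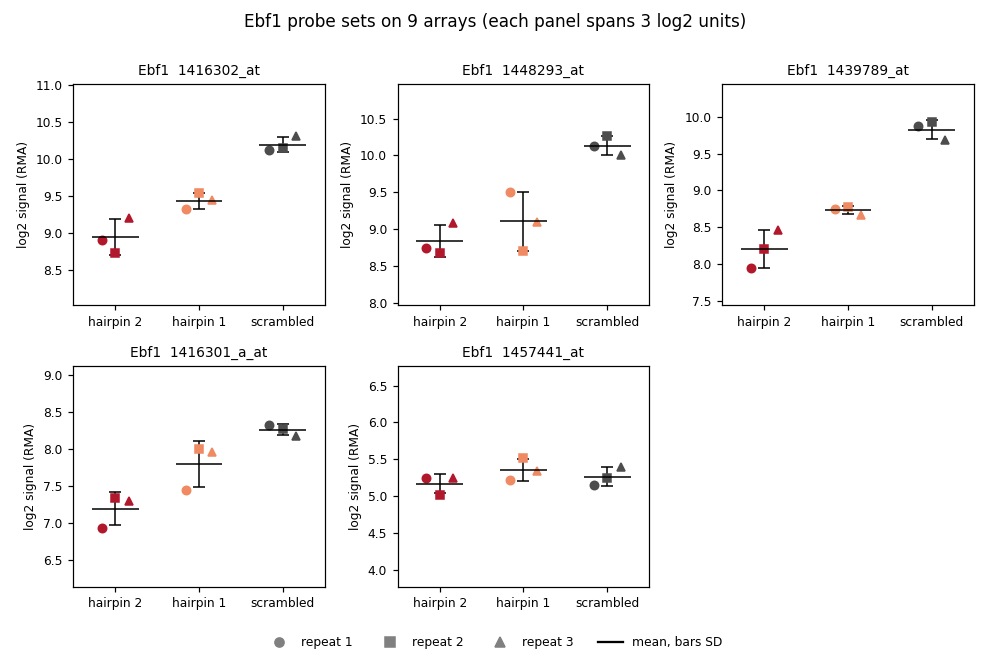
Log2 signal of the 5 Ebf1 probe sets (vertical axis, RMA log2 units, each panel spanning 3 units) on the 9 arrays, with hairpin 2, hairpin 1 and scrambled from left to right; symbols mark the repeat, long lines the mean and bars the SD of 3 arrays. On 4 probe sets every hairpin array lies below every scrambled array, and on 1457441_at the groups overlap between 5.02 and 5.52.

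Ebf1 signal was lower with hairpin 2 than with hairpin 1 on 3 of the 5 Ebf1 probe sets. The difference was -0.50 log2 units on 1416302_at (SE 0.116, limma adjusted p = 0.00951), -0.52 on 1439789_at (adjusted p = 0.00943) and -0.61 on 1416301_a_at (adjusted p = 0.0124), each in 3 of 3 arrays below the hairpin 1 range. The last of these was lost without repeat 2 of hairpin 1 (adjusted p = 0.0707), repeat 3 of hairpin 1 (0.0659) or repeat 1 of hairpin 2 (0.0665).

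Among the paralogs, Ebf2 rose with hairpin 1 on 1 of its 3 probe sets by a small margin, and no probe set of Ebf2, Ebf3 or Ebf4 passed the test with hairpin 2. Ebf2 is the paralog best known in brown fat. On 1418494_at it read 6.97, 6.91 and 7.20 with hairpin 2, 7.14, 7.41 and 7.31 with hairpin 1, and 6.95, 6.94 and 6.97 with the scrambled hairpin. Every hairpin 1 array lay above the scrambled arrays, which sat within a narrow band, while hairpin 2 overlapped both groups. The rise with hairpin 1 was 0.33 log2 units or 1.26-fold (SE 0.104, adjusted p = 0.0434), and the hairpin 2 difference was 0.08 (interval -0.15 to 0.30, adjusted p = 0.732). The difference between the hairpins, -0.26, did not pass (adjusted p = 0.137), and passed without hairpin 1 repeat 1 (-0.33, adjusted p = 0.0484).

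The Ebf2 call with hairpin 1 lay near the threshold and was lost in several fits with 1 array left out. Its log2 difference stayed between 0.27 and 0.41 in those fits. It did not pass without scrambled repeat 1, 2 or 3 (adjusted p = 0.124, 0.128 and 0.103), without hairpin 1 repeat 2 (0.165) or 3 (0.126), or without hairpin 2 repeat 1 (0.0538). It was also lost after quantile normalization (0.26, adjusted p = 0.0766) and with equal array medians (0.30, adjusted p = 0.0673). The other Ebf2 probe sets, drawn from the same source record, did not pass: 1449102_at differed by 0.18 with hairpin 2 and 0.24 with hairpin 1 (adjusted p = 0.312 and 0.143), and 1449101_at by -0.05 and 0.12 (0.820 and 0.468). Their arrays ran from 5.78 to 6.14 with hairpin 2, 5.91 to 6.09 with hairpin 1 and 5.67 to 5.91 with scrambled on 1449102_at, and from 5.11 to 5.31, 5.21 to 5.62 and 5.22 to 5.29 in that order of groups on 1449101_at.

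Ebf3, a paralog studied chiefly in neurons and muscle, kept differences close to 0 on 2 of its 3 probe sets. Probe set 1428349_s_at read 9.27, 9.15 and 9.49 with hairpin 2, 9.40, 9.23 and 9.27 with hairpin 1, and 9.32, 9.32 and 9.31 on scrambled arrays. The groups overlapped, and the difference was -0.02 with hairpin 2 (interval -0.23 to 0.19, adjusted p = 0.951) and -0.02 with hairpin 1 (adjusted p = 0.917); its suffix marks probes that may match transcripts of other genes. On 1452751_at the arrays ran from 8.80 to 9.14 with hairpin 2, 8.98 to 9.14 with hairpin 1 and 8.91 to 9.01 with scrambled. There the differences were 0.05 (adjusted p = 0.844) and 0.09 (adjusted p = 0.653), for hairpin 2 and hairpin 1 in turn.

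The third Ebf3 probe set, 1460666_a_at, read 8.33, 7.91 and 8.62 with hairpin 2, 8.42, 8.59 and 8.52 with hairpin 1, and 8.22, 8.25 and 8.25 with the scrambled hairpin. Hairpin 1 arrays were all above scrambled, and hairpin 2 arrays fell on both sides of it. Neither difference passed, at 0.05 with hairpin 2 (interval -0.25 to 0.34, adjusted p = 0.897) and 0.27 with hairpin 1 (interval -0.03 to 0.57, adjusted p = 0.238). Ebf4, the least studied paralog, read 5.17, 5.44 and 5.28 with hairpin 2, 5.48, 5.28 and 5.32 with hairpin 1, and 5.28, 5.21 and 5.20 with scrambled, at the 28.6th percentile of all probe sets. Its groups overlapped, and its differences of 0.07 and 0.13 did not pass (adjusted p = 0.698 with hairpin 2 and 0.351 with hairpin 1).

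Zfp423 read 9.97, 9.98 and 9.94 with hairpin 2, 9.71, 9.90 and 9.80 with hairpin 1, and 9.85, 9.82 and 9.87 with the scrambled hairpin. Hairpin 2 arrays lay just above all others, and hairpin 1 arrays spread around the scrambled ones. The difference was 0.12 log2 units with hairpin 2 (interval -0.05 to 0.29, adjusted p = 0.411) and -0.04 with hairpin 1 (interval -0.21 to 0.13, adjusted p = 0.799), and neither passed. Between the hairpins it was 0.16 (adjusted p = 0.241).

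Zfp521 rose with hairpin 1 on 1 of its 2 probe sets. On 1451332_at it read 6.98, 6.51 and 6.98 with hairpin 2, 7.28, 7.53 and 7.32 with hairpin 1, and 6.98, 6.52 and 6.73 with the scrambled hairpin. The hairpin 1 arrays stood above all others, and hairpin 2 and scrambled covered nearly the same range. The rise was 0.64 log2 units or 1.56-fold with hairpin 1 (SE 0.142, limma adjusted p = 0.00657), and the hairpin 2 difference was 0.08 (interval -0.22 to 0.38, adjusted p = 0.809). The hairpin 1 rise passed under every alternative run on this probe set, the highest adjusted p being 0.0458, but was 0.39 log2 units (adjusted p = 0.0131) when both Zfp521 probe sets were averaged.

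Hairpin 2 minus hairpin 1 on 1451332_at was -0.56 (adjusted p = 0.0169). That call was lost without hairpin 1 repeat 2 (-0.48, adjusted p = 0.0868) or hairpin 2 repeat 2 (-0.40, adjusted p = 0.0806), and when both Zfp521 probe sets were averaged (-0.24, adjusted p = 0.132). The second probe set, 1439909_at, read 6.60, 6.59 and 6.72 with hairpin 2, 6.66, 6.51 and 6.49 with hairpin 1, and 6.58, 6.35 and 6.28 with scrambled. It showed another order of groups, hairpin 2 being highest, and no difference passed (0.23 with hairpin 2, adjusted p = 0.152; 0.14 with hairpin 1, adjusted p = 0.401).

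**Figure D2:**
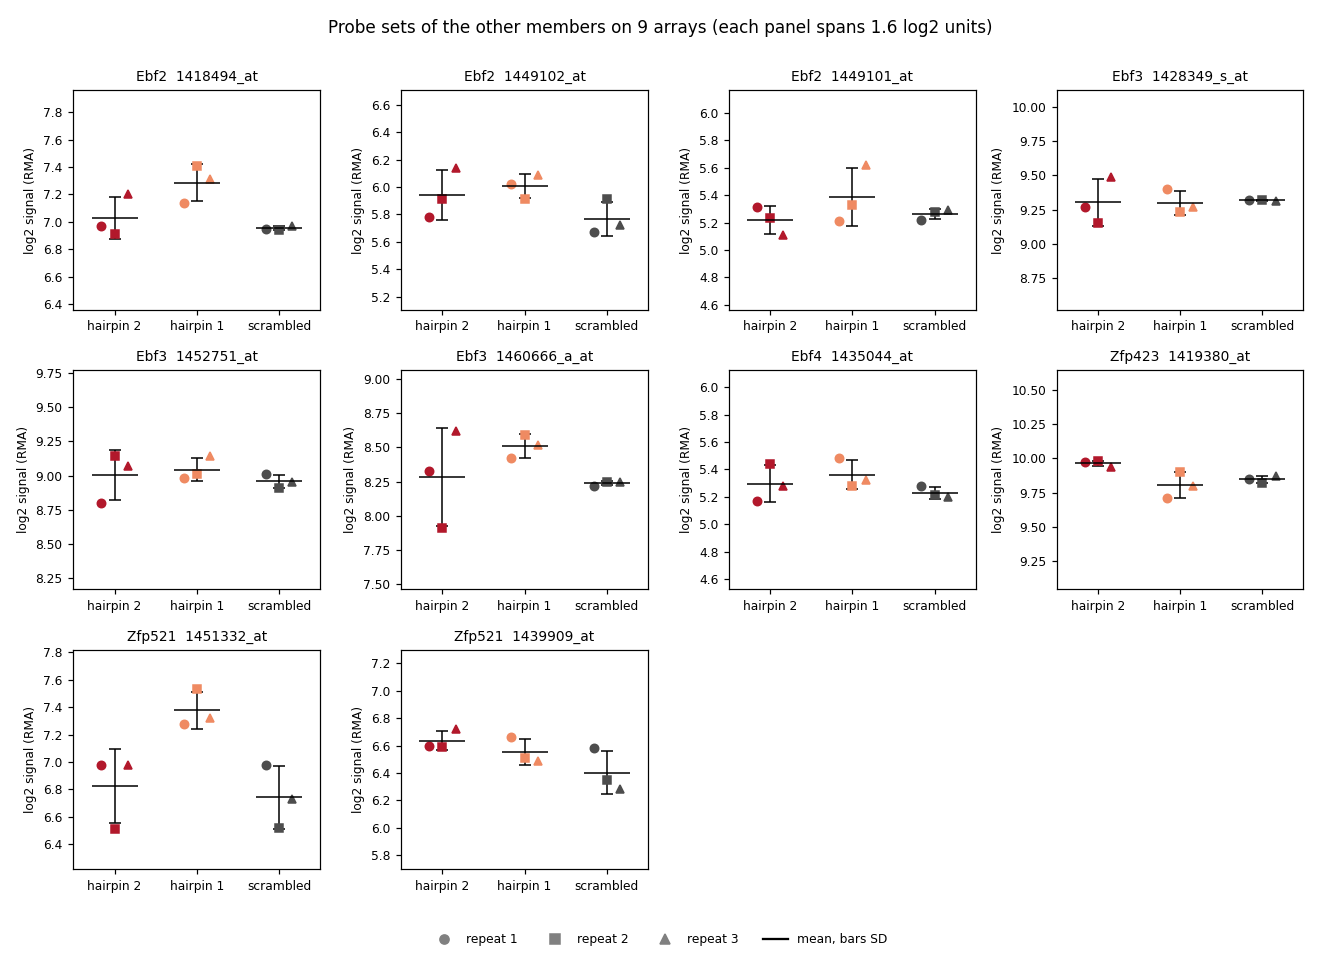
Log2 signal of the 10 probe sets of Ebf2, Ebf3, Ebf4, Zfp423 and Zfp521 (vertical axis, RMA log2 units, each panel spanning 1.6 units) on the 9 arrays, with hairpin 2, hairpin 1 and scrambled from left to right; symbols mark the repeat, long lines the mean and bars the SD of 3 arrays. Hairpin 1 stands above both other groups on Zfp521 1451332_at (7.28 to 7.53), and all 3 groups overlap on Ebf3 1428349_s_at (9.15 to 9.49).

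Over all 15 probe sets, 4 changed with hairpin 2, all of Ebf1, 4 lower and 0 higher, against 17.5% of all probe sets, 7.17% lower and 10.3% higher. With hairpin 1, 5 changed: 3 lower, all of Ebf1, and 2 higher, 1 each of Ebf2 and Zfp521, against 15.1% of all probe sets, 10.4% higher and 4.64% lower. Leaving out the targeted gene, 0 of 10 probe sets changed with hairpin 2 by limma (1 at an unadjusted p below 0.05, Zfp521 1439909_at) and 2 of 10 with hairpin 1. Between the hairpins 4 probe sets differed, 3 of Ebf1 and 1 of Zfp521, 4 lower and 0 higher with hairpin 2, against 12.6% of all, 7.73% lower and 4.91% higher. Groups did not overlap on 6 of 15 probe sets for hairpin 2 (31.8% of all probe sets), on 8 for hairpin 1 (29.5%) and on 5 between the hairpins (23.3%). Counted by gene, 1 of the 6 members had a changed probe set with hairpin 2, 3 with hairpin 1 and 2 between the hairpins, against 27.3%, 24.6% and 21.1% of all genes. The comparisons against scrambled share their 3 control arrays.

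**Figure D3:**
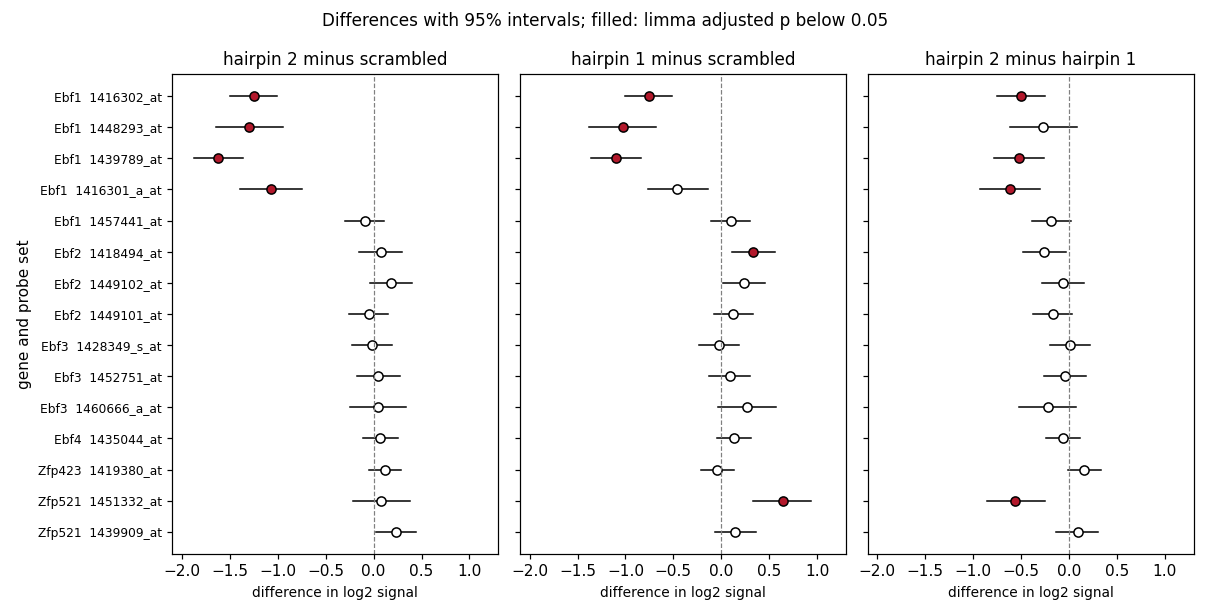
Difference in log2 signal (horizontal axis) for each of the 15 probe sets, for hairpin 2 minus scrambled, hairpin 1 minus scrambled and hairpin 2 minus hairpin 1 from left to right; points are limma estimates, bars 95% intervals, and filled points have an adjusted p below 0.05. Ebf1 reaches -1.62 with hairpin 2 and -1.10 with hairpin 1, and the filled points to the right of 0 are Ebf2 (0.33) and Zfp521 (0.64) with hairpin 1.

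Genes with the pattern nearest to a member were sought among 12734 genes by the root mean square difference, over the 9 arrays, of log2 values centred on each gene's own mean. Nearest to Ebf1 were Tapbpl, which encodes a peptide editor of MHC class I (0.124 log2 units), Atp10d, a phospholipid flippase gene (0.129), Cyb5r4 (0.135), Tmem140 (0.135) and Cryl1 (0.15). Tapbpl averaged 8.62 ± 0.21 with hairpin 2, 9.29 ± 0.10 with hairpin 1 and 10.12 ± 0.04 with scrambled (SD, n = 3 each). Nearest to Ebf2 were Ergic2 (0.0363), Lrrc14 (0.04) and Ube3c (0.0484); Ergic2 averaged 11.30 ± 0.09 with hairpin 2, 11.57 ± 0.12 with hairpin 1 and 11.25 ± 0.04 with scrambled. Nearest to Zfp521 were Uhrf1, which encodes a partner of the maintenance DNA methyltransferase (0.104), Rflnb (0.123) and Myl9, a myosin light chain gene (0.134). These distances describe 9 arrays of 3 groups and carry no test.

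Partner and pathway lists were then read at gene level, each gene by its probe set with the highest mean and p-values adjusted over 18193 genes. By that rule 23.8% of genes changed with hairpin 2 (14.7% higher, 9.1% lower; median difference 0.00632 log2 units) and 22.1% with hairpin 1 (15.9% higher, 6.26% lower; median 0.0378). Genes named below that fall outside the 4 with the smallest hairpin 2 p on their list were chosen after their values were seen; they are Acvr2a, Acvr2b, Bambi, Bmp4, Bmpr1a, Bmpr2, Id3, Gatad2b, Hdac2, Mbd2, Rbbp4, Rarg, Nr3c1, Prdm16, Srebf1, Stat5b, Cox7a1, Fgf21, Ucp1, Parp1, Dlk1, Pdgfrb, Cd34, Ptprc and the Smad genes. Several gene-level values depended on which probe sets stood for a gene or on the scaling, and values with all probe sets of a gene averaged, or with all array medians made equal, are given where they end a call or move it by over 1.5 times.

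BMP and SMAD signalling carries signals that Zfp423 relays through SMADs. Of 26 genes, 5 rose and 2 fell with hairpin 2 (median 0.09), and 6 rose and 2 fell with hairpin 1 (median 0). With equal array medians 4 fell with each hairpin, and with hairpin 1 the count of 6 became 3 without hairpin 1 repeat 3 and that of 2 became 1 without hairpin 1 repeat 2 or scrambled repeat 1, 1 with a filter at the 50th percentile and 4 with array weights. Grem1, which encodes a secreted BMP antagonist, read 7.98, 7.94 and 7.86 with hairpin 2, 8.37, 8.36 and 8.17 with hairpin 1, and 7.46, 7.49 and 7.28 with scrambled, and rose with hairpin 2 (0.52, adjusted p = 0.000772) and hairpin 1 (0.89, adjusted p = 5.84e-06). Both hairpin groups lay wholly above scrambled. Among receptors, Acvr1 rose with hairpin 2 (0.53), its hairpin 1 difference missing the threshold (-0.26, adjusted p = 0.119; -0.41 and 0.00273 without hairpin 1 repeat 1), Bmpr2 rose by 0.42 with hairpin 2, Acvr2a by 0.67 with hairpin 1, and Bmpr1a by 0.25 and 0.50 with hairpin 2 and hairpin 1. Of the Id genes, whose proteins block E proteins and which BMP signals induce, Id2 rose (0.78 and 0.41), Id3 fell (-0.40 and -0.39), each given for hairpin 2 and then hairpin 1, and Id1 fell with hairpin 2 (-0.32) and missed the threshold with hairpin 1 (-0.04, adjusted p = 0.769). With hairpin 1, Acvr2b (0.39) and the ligand gene Bmp4 (0.25, at percentile 15.1 of genes) also rose, and Bambi, which encodes a pseudoreceptor that blunts the signal, fell (-0.50).

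Several of these calls shrank or were lost with averaged probe sets, under other settings or with 1 array left out. With averaged probe sets Id2 was 0.40 with hairpin 2 (adjusted p = 0.00162) and 0.05 with hairpin 1 (0.725), Bmpr1a was 0.08 with hairpin 2 (0.470), Bmpr2 0.23 with hairpin 2 (0.0230) and Acvr2b 0.17 with hairpin 1 (0.104). With equal array medians Acvr1 passed with hairpin 1 (-0.36, adjusted p = 0.0472), as it did with array weights (-0.44, 0.000762), while Acvr2b (0.29, 0.0805) and Bmp4 (0.15, 0.208) were lost; Acvr2b was lost after quantile normalization too (0.0727), and Bmp4 without the mean-variance trend (0.0635). Bmpr1a with hairpin 2 was lost without hairpin 2 repeat 3 (adjusted p = 0.103) or scrambled repeat 3, and Id2 with hairpin 1 without hairpin 1 repeat 3 (0.0541). Bambi was lost without hairpin 1 repeat 2 (0.0839) or scrambled repeat 1. Acvr2b was lost without any 1 of the scrambled arrays or of hairpin 1 repeats 2 and 3, where it reached 0.137, and Bmp4 without any 1 of the scrambled arrays or hairpin 1 repeat 3, where it reached 0.209. The SMAD genes on this list, Smad1, Smad4, Smad5, Smad6, Smad7 and Smad9, missed the threshold against scrambled with both hairpins. Other SMAD genes were not on the list and were not read.

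The NuRD complex, a histone deacetylase and chromatin remodelling corepressor, is a known corepressor of Zfp423 and Zfp521. Of its 14 subunit genes, 5 rose and 2 fell with hairpin 2 (median 0.12), and 5 rose and 0 fell with hairpin 1 by limma (median 0.22; 8 and 0 at an unadjusted p below 0.05). The hairpin 1 counts became 3 higher and 1 lower with equal array medians and 8 higher and 1 lower with array weights, and the hairpin 2 counts 3 higher and 0 lower with averaged probe sets. Chd3, a helicase subunit gene, read 9.22, 9.42 and 9.26 with hairpin 2, 8.62, 8.90 and 8.78 with hairpin 1, and 8.27, 8.28 and 8.18 with scrambled. No groups overlapped, and Chd3 rose with hairpin 2 by 1.06 (adjusted p = 4.39e-07) and with hairpin 1 by 0.53 (adjusted p = 0.000846). Gatad2a rose by 0.44 and 0.48, the deacetylase gene Hdac1 by 0.33 and 0.32, and Mta2 by 0.53 and 0.33, for hairpin 2 and then hairpin 1. Gatad2b rose (0.39) and Mbd2 (-0.26) and Rbbp4 (-0.12) fell with hairpin 2, and Hdac2 rose with hairpin 1 (0.28).

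Mta2 with hairpin 1 was lost without scrambled repeat 1 (adjusted p = 0.105) or hairpin 1 repeat 2, and Hdac2 without scrambled repeat 3 (0.0519). Gatad2b was lost without scrambled repeat 1 (0.0830) or 3, or hairpin 2 repeat 2 or 3, and Mbd2 without hairpin 2 repeat 1 (0.106) or 3, or scrambled repeat 1 or 2. Rbbp4 was lost without any 1 of the scrambled or hairpin 2 arrays, or hairpin 1 repeat 3, and reached 0.167. The hairpin 2 count of 2 lower thus became 0 or 1 without any 1 of these 7 arrays, and was 1 without the mean-variance trend, where Rbbp4 was lost (0.204). When all probe sets of a gene were averaged, Hdac2 turned to -0.21 with hairpin 1 (adjusted p = 0.309) and Gatad2b to -0.03 with hairpin 2 (adjusted p = 0.842), and Mbd2 (-0.16, 0.189) and Rbbp4 (-0.15, 0.0659) were lost. Gatad2a was then 0.18 with hairpin 2, no longer passing (adjusted p = 0.0538), and 0.24 with hairpin 1 (0.0165). With equal array medians Hdac2 (0.18, adjusted p = 0.0707) and Mta2 (0.23, 0.0549) were lost with hairpin 1.

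E proteins, which act beside EBF1 in early B cells, and retinoid receptors, whose response Zfp423 modulates, made up 9 genes of a list of 10. The tenth was Parp1, an ADP-ribosyltransferase gene whose protein is known to bind the human counterpart of Zfp423; it did not pass (0.15 with hairpin 2, adjusted p = 0.130, and -0.02 with hairpin 1, adjusted p = 0.858). With hairpin 2, 2 rose and 1 fell (median 0.13), and with hairpin 1, 2 rose and 2 fell (median 0.04). The 2 rises with hairpin 1 were both lost with equal array medians and without scrambled repeat 1 or 2, and 1 was left after quantile normalization, with averaged probe sets, with a filter at the 50th percentile and without hairpin 1 repeat 2 or 3. Rxrg, a retinoid X receptor gene, read 7.90, 8.16 and 8.12 with hairpin 2, 8.26, 8.43 and 8.50 with hairpin 1, and 8.95, 9.05 and 9.06 with scrambled. It fell with both (-0.96, adjusted p = 1.85e-06, and -0.62, adjusted p = 0.000266, hairpin 2 first), and the 3 groups did not overlap. The retinoic acid receptor gene Rara rose by 0.61 with hairpin 2 and 0.38 with hairpin 1, the hairpin 1 rise being lost without scrambled repeat 1 or 2 (up to 0.0892) and with equal array medians (0.28, adjusted p = 0.0648). Rarg rose with hairpin 1 (0.32), lost without scrambled repeat 1 (0.149) or 2, or hairpin 1 repeat 2 or 3, with equal array medians (0.23, adjusted p = 0.0727), after quantile normalization (0.21, 0.0823) and with averaged probe sets (0.24, 0.0541). The E protein gene Tcf12 fell with hairpin 1 (-0.34, adjusted p = 0.00723; 0.01 with its probe sets averaged, adjusted p = 0.945) and missed the threshold with hairpin 2 (0.13, adjusted p = 0.339). Tcf3 rose with hairpin 2 (0.33, adjusted p = 0.0465), lost without scrambled repeat 1 or 2, hairpin 1 repeat 3 or any 1 of the hairpin 2 arrays (up to 0.229), with equal array medians (0.27, 0.0706), after quantile normalization (0.0502) or without the mean-variance trend (0.0530), and missed the threshold with hairpin 1 (0.16, adjusted p = 0.377).

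Of 16 adipogenic transcription factor genes, 3 rose and 4 fell with hairpin 2 (median 0.02), and 1 rose and 2 fell with hairpin 1 (median -0.01). The hairpin 1 counts became 0 higher and 4 lower with equal array medians, 3 higher with array weights or without hairpin 1 repeat 1, and 2 higher with averaged probe sets. Pparg, the central regulator of fat cell differentiation, read 12.88, 12.94 and 12.99 with hairpin 2, 13.20, 13.28 and 13.24 with hairpin 1, and 13.46, 13.47 and 13.56 with scrambled. It fell with both, with no overlap (-0.56, adjusted p = 1.55e-07, and -0.25, adjusted p = 0.000897), as did Srebf1 (-0.41 and -0.38), hairpin 2 being given first. With hairpin 2 Cebpd (0.65) and Klf5 (0.57), both early regulators of the programme, rose and Klf15 fell (-0.66), Klf5 having low signal (percentile 24.7 of genes). Averaged probe sets gave 0.35 for Cebpd (adjusted p = 0.00155) and 0.29 for Klf5 (0.00171). With hairpin 1 these had differences of 0.20 for Klf5 (adjusted p = 0.0785), -0.16 for Klf15 (adjusted p = 0.195) and within 0.01 of 0 for Cebpd (adjusted p = 0.992), and none passed; Klf15 passed with equal array medians (-0.26, adjusted p = 0.0169) and after quantile normalization (-0.24, 0.0189), and Klf5 with array weights (0.21, 0.0206) and without hairpin 1 repeat 1 (0.24, 0.0456). Nr3c1, the glucocorticoid receptor gene, rose with hairpin 2 (0.25; up to 0.114 without any 1 of the scrambled arrays or hairpin 2 repeats 2 and 3; 0.03 with averaged probe sets, adjusted p = 0.868; 0.0552 with equal array medians; 0.0644 without the mean-variance trend). Stat5b rose with hairpin 1 (0.31; up to 0.0914 without any 1 of the scrambled arrays or hairpin 1 repeats 2 and 3; 0.21 with equal array medians, adjusted p = 0.0697).

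Brown and beige fat genes, the programme in which EBF2 and Zfp423 are known to oppose each other, held 17 measured genes. With hairpin 2, 2 rose and 4 fell (median -0.05), and with hairpin 1, 3 rose and 1 fell (median -0.01). The count of 1 lower with hairpin 1 became 4 with equal array medians, 3 after quantile normalization or with array weights, and 0 where genes below the 30th or 50th percentile were left out. With hairpin 2 the higher count became 1 with equal array medians or with genes below the 50th percentile left out, which also left 2 lower. Cox8b, a cytochrome c oxidase subunit gene, read 13.24, 13.48 and 13.25 with hairpin 2, 13.02, 13.18 and 13.25 with hairpin 1, and 11.43, 11.69 and 11.72 with scrambled. It rose with hairpin 2 by 1.71 (adjusted p = 1.96e-10) and with hairpin 1 by 1.54 (adjusted p = 2.27e-09), and every hairpin array lay above every scrambled array. Otop1, at percentile 28.8 of genes, fell with both (-0.57 and -0.69). With hairpin 2 the lipid droplet gene Cidea fell (-0.76) and missed the threshold with hairpin 1 (-0.20, adjusted p = 0.377). Fgf21 rose with both (0.28 and 0.47) and Cox7a1 with hairpin 1 (0.65). Ucp1, which encodes the uncoupling protein of brown fat, read 5.12 to 5.29 with hairpin 2, 5.28 to 5.63 with hairpin 1 and 5.16 to 5.28 with scrambled, at the 20.5th percentile of genes, and did not pass.

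Fgf21 with hairpin 2 was lost without scrambled repeat 1 (adjusted p = 0.0976) or 3, or hairpin 2 repeat 1 or 2, which leaves 1 gene higher with hairpin 2, and with equal array medians (0.0614). Ppargc1b, a coactivator gene, fell with hairpin 2 (-0.26; lost without scrambled repeat 2, adjusted p = 0.0626) and missed the threshold with hairpin 1 (-0.17, adjusted p = 0.0983), where it passed with equal array medians (-0.27, 0.00823), after quantile normalization (-0.26, 0.00921) and with array weights (-0.20, 0.0107). Prdm16, which is on both the adipogenic and the brown fat list, fell with hairpin 2 (-0.30), lost without scrambled repeat 3 (0.165) or 1, or hairpin 2 repeat 1 or 3, and with averaged probe sets (-0.09, adjusted p = 0.435). Of 14 measured genes that EBF1 regulates in early B cells, 11 lay below the 30th percentile of gene means. Of these 14, 1 fell with hairpin 2, Foxo1 (-0.36, adjusted p = 0.00833; 0.0555 without scrambled repeat 2; -0.17 and 0.0908 with averaged probe sets), and 1 with hairpin 1, Vpreb3 (-0.26, adjusted p = 0.0281; up to 0.157 without scrambled repeat 1 or 3, or hairpin 1 repeat 2 or 3, and not tested where genes below the 30th percentile were left out); with array weights 1 of the 14 also rose with hairpin 1. The other hairpin's differences did not pass, at 0.07 for Foxo1 with hairpin 1 (adjusted p = 0.668) and -0.18 for Vpreb3 with hairpin 2 (adjusted p = 0.143).

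**Figure D4:**
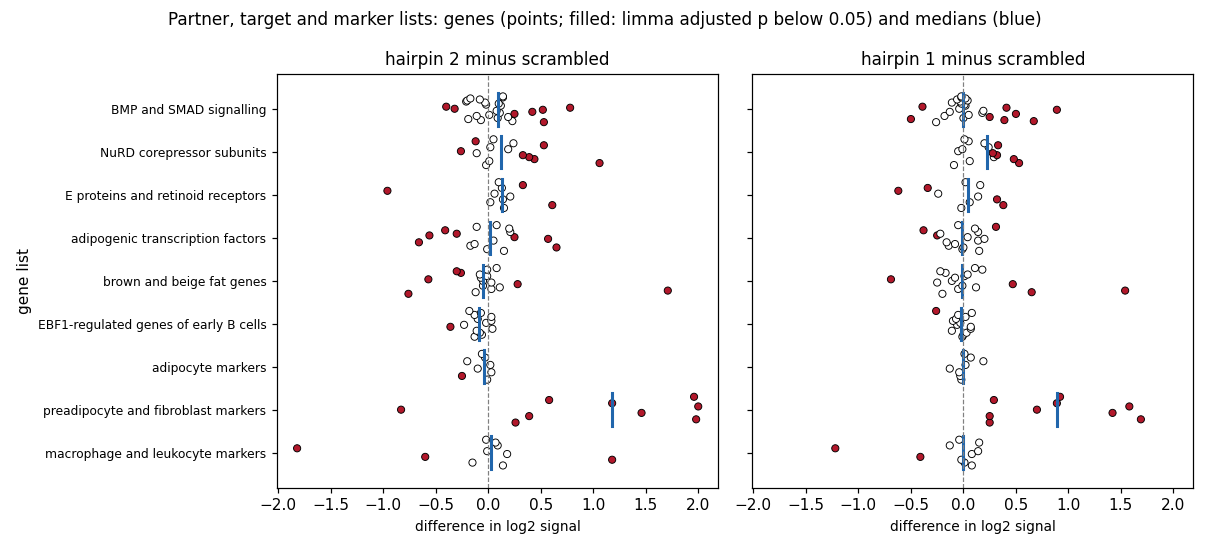
Difference in log2 signal (horizontal axis) of each measured gene of the 9 lists, for hairpin 2 minus scrambled on the left and hairpin 1 minus scrambled on the right; points are genes, filled where the limma adjusted p is below 0.05, and blue bars are list medians. The medians of the partner and pathway lists lie between -0.09 and 0.22, and that of the preadipocyte and fibroblast markers at 1.18 with hairpin 2 and 0.89 with hairpin 1.

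Among the cell type markers, those of preadipocytes and fibroblasts moved most with the groups. Of 9 measured preadipocyte and fibroblast markers, 8 rose and 1 fell with hairpin 2, and 9 rose with hairpin 1 (7 to 9 when leaving out each array, Pdgfrb and Cd34 being lost without 1 array of scrambled or hairpin 1, and both with equal array medians, at adjusted p = 0.119 and 0.143; Pdgfrb also after quantile normalization, 0.0942); their summed level (as log2 of the sum of antilogs) was 15.72 to 15.81 with hairpin 2, 15.55 to 15.64 with hairpin 1 and 14.92 to 15.03 with scrambled. Of these 9 markers, 8 lay at or above the 30th percentile of gene means, and Cd34 lay low, at percentile 9.42 of genes. Col1a1, a fibrillar collagen gene, read 10.99, 10.96 and 11.08 with hairpin 2, 10.58, 10.70 and 10.90 with hairpin 1, and 9.11, 8.96 and 9.04 with scrambled. Every hairpin array lay above every scrambled array, and Col1a1 rose by 1.98 with hairpin 2 (adjusted p = 6.38e-11) and 1.69 with hairpin 1 (1.58e-09). The surface marker gene Thy1 rose by 1.96 and 0.92, and the matrix proteoglycan genes Dcn by 1.46 and 1.42 and Lum by 2.00 and 1.58, for hairpin 2 and then hairpin 1. Pdgfrb rose with hairpin 1 by 0.29 (limma adjusted p = 0.017), and by 0.49 with averaged probe sets (0.000661). Dlk1, a preadipocyte marker, fell with hairpin 2 (-0.83, adjusted p = 0.00208) and rose with hairpin 1 (0.70, adjusted p = 0.00873; 0.0563 without hairpin 1 repeat 3); with averaged probe sets these were -0.39 (0.00769) and 0.45 (0.00426). Of 8 measured adipocyte markers, 1 fell with hairpin 2 (Cidec, -0.25, adjusted p = 0.0039) and 0 changed with hairpin 1 by limma (1 at an unadjusted p below 0.05). With equal array medians 3 adipocyte markers fell with hairpin 1, and with array weights, without scrambled repeat 3 or without hairpin 1 repeat 1 Pnpla2, a triglyceride lipase gene, rose (0.19, adjusted p = 0.0866 otherwise; up to 0.26 and as low as 0.0132 in these). With hairpin 2 Pnpla2 lay just outside the threshold (-0.20, adjusted p = 0.0647) and fell under several other settings, among them equal array medians (-0.26, 0.0119), so that 2 markers fell. The summed level of adipocyte markers was 16.83 to 16.86 with hairpin 2, 16.84 to 16.87 with hairpin 1 and 16.84 to 16.88 with scrambled. Such sums are weighted to the markers with the highest signal, and some adipocyte markers lay close to the highest deposited value, 15.0. A flat sum therefore does not show that the share of adipocytes was unchanged. The median over the 8 adipocyte markers was 12.93 to 13.09 with hairpin 2, 12.94 to 13.16 with hairpin 1 and 13.08 to 13.27 with scrambled. Of 10 macrophage and leukocyte markers, 1 rose (Cd68) and 2 fell (Laptm5 and Cd74) with hairpin 2, and Laptm5 and Cd74 fell with hairpin 1, where Laptm5 missed the threshold with its probe sets averaged (-0.17, adjusted p = 0.228; -0.34 and 0.0150 with hairpin 2) and Cd74 without scrambled repeat 1 or 3 or hairpin 1 repeat 2 or 3 (up to 0.130). With array weights 2 of them rose with hairpin 1, and with averaged probe sets 2 rose with hairpin 2, while leaving out genes below the 50th percentile left 1 lower with each hairpin and 0 higher. The defining leukocyte marker Ptprc read 4.73 to 4.99 with hairpin 2, 4.84 to 5.06 with hairpin 1 and 4.63 to 4.84 with scrambled, at percentile 8.53 of genes. These scales have no 0. The part of fibroblast and preadipocyte markers in the differences of Zfp521, Ebf2 and the lists was not tested.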

How the data were processed

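The deposited log2 values, 1 per probe set and array, were made by the authors with RMA, which corrects background, equalizes arrays and summarizes probes, per the submitters' processing notes; its version and the genome build are not given in the sources used here. RNA was amplified with a NuGEN kit and biotin-labelled, per the labels' protocols. Of 45101 probe sets, 64 controls were left out and 45037 kept without a filter; 34945 name 1 symbol, 932 several and 9160 none, and 34741 Entrez identifiers were found in the GRCm38.p6 gene table, with 0 symbols updated. Groups came from the titles. limma 3.58.1 (R 4.3.3) fitted 1 mean for each group over all 9 arrays, with lmFit and a moderated variance that follows a mean-variance trend (eBayes), and with two-sided p-values adjusted by Benjamini-Hochberg, and was tested on simulated data. Lists used 1 probe set a gene, that with the highest mean. The rule for named genes took all probe sets of the members and, from each list, the 4 genes with the smallest hairpin 2 p among those called in any contrast; any other gene in the text was picked with its values in view. The members and lists were chosen with earlier results of these data known. Alternatives were scaling, filters at the 30th and 50th percentile, the variance prior, array weights, a replicate block, fits of only the groups compared, averaged probe sets and leaving out each array.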

Additional observations from a re-analysis of the deposited data

Results flagged for a closer look

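By limma's test of hairpin 2 minus hairpin 1, the hairpins differed on 4 of the 15 probe sets of the family, against 12.6% of all probe sets. For Ebf1 the log2 difference was -0.50 on 1416302_at, -0.52 on 1439789_at and -0.61 on 1416301_a_at, and for Zfp521 it was -0.56 on 1451332_at (adjusted p = 0.00951, 0.00943, 0.0124 and 0.0169 in that order). In each case all 3 hairpin 2 arrays lay below all 3 hairpin 1 arrays. The other Zfp521 probe set, 1439909_at, differed by 0.09 (adjusted p = 0.675). The call of Ebf1 1416301_a_at was lost in some fits with 1 array left out (limma adjusted p up to 0.0707). That of Zfp521 1451332_at was lost in some such fits too, and with both its probe sets averaged (-0.24, limma adjusted p = 0.132). The 3 Ebf1 probe sets read 1 gene, and 1416302_at and 1416301_a_at share a source record.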

How the results depend on the processing

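Of 13 called member differences, 10 kept direction and side of the threshold under all alternatives run; the exceptions, Ebf2 1418494_at with hairpin 1 and the hairpin differences of Ebf1 1416301_a_at and Zfp521 1451332_at, are given with their values above. Of 32 not called, 30 stayed on that side, the exceptions being Ebf1 1416301_a_at with hairpin 1 and Ebf2 1418494_at between the hairpins. Of 79 called gene differences on the lists, 52 held under all alternatives. The cause of these changes was not tested.

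Leaving out each array, all probe sets called ran from 4268 to 9861 for hairpin 1 (10822 with array weights), member probe sets called between the hairpins from 2 to 5 and members from 1 to 3 (1 with averaged probe sets); list genes called with hairpin 1 were 25, and 38 with array weights. Deviations from group means correlated at -0.252 to 0.2 for same repeat numbers and -0.238 to 0.266 for other numbers. Deviations of 3 arrays from their own mean cancel out, so these correlations depend on each other. They cannot decide whether repeat numbers pair the samples. With the replicate block 1 member call was lost, that of Ebf2 1418494_at with hairpin 1 (0.33, adjusted p = 0.0505), and 1 gained, that of Ebf1 1416301_a_at with hairpin 1 (-0.46, adjusted p = 0.027). On the lists the block lost Bmp4 with hairpin 1 (adjusted p = 0.0565) and Rbbp4 (0.0645) and Prdm16 (0.0502) with hairpin 2, and gained Pnpla2 with both (0.0173 with hairpin 2 and 0.0273 with hairpin 1).

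Signs turned in the cases below, where all but Hdac2, Tcf12 and Gatad2b were not called to begin with. Leaving out each array, the hairpin 2 difference ran from -0.01 to 0.13 for Ebf2 1418494_at, -0.1 to 0 for Ebf2 1449101_at, -0.11 to 0.06 for Ebf3 1428349_s_at, -0.02 to 0.15 for Ebf3 1452751_at (0 with array weights), -0.12 to 0.23 for Ebf3 1460666_a_at, 0 to 0.13 for Ebf4 and -0.03 to 0.24 for Zfp521 1451332_at. The hairpin 1 difference ran from -0.07 to 0.01 for Ebf3 1428349_s_at and from -0.09 to 0.01 for Zfp423. Hairpin 2 minus hairpin 1 ran from -0.16 to 0.02 for Ebf2 1449102_at, -0.09 to 0.08 for Ebf3 1428349_s_at and -0.11 to 0.07 for Ebf3 1452751_at (0.01 after quantile normalization). With averaged probe sets Ebf3 was 0.03 with hairpin 2, 0.11 with hairpin 1 and -0.09 between the hairpins.

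On the lists, averaged probe sets gave Gatad2b -0.03 with hairpin 2, and Acvr1 0.05, Hdac2 -0.21, Tcf12 0.01, Cebpd 0.02 and Pnpla2 -0.04 with hairpin 1. Array weights gave Cebpd 0.06, Cidec 0.01 and Cd68 0.06 with hairpin 1, and equal array medians Foxo1 -0.03. Leaving out each array, the hairpin 1 difference ran from -0.05 to 0.04 for Cebpd, -0.07 to 0.03 for Cidec, -0.09 to 0.11 for Cd68 and -0.09 to 0.03 for Id1.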
